A study of Mus musculus with 2 samples.

Results

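The broad H3K36me3 domains described here are the peaks wider than 10000 bp in the deposited list of annotated H3K36me3 peaks. They numbered 4585 of the 45575 peaks analysed, and every class of annotation was kept. The peaks came from primary keratinocytes (KCs) taken from the skin of 10-week-old C57BL/6 mice of the genotype Setd2 fl/fl. These are floxed control animals in which Setd2 is still intact, and no Cre driver is named in the genotype label of these cells. The epidermis was lifted from the dermis with dispase and its cells were released with trypsin, and no step that sorted KCs from other epidermal cells is described. There was 1 H3K36me3 ChIP library and 1 input library, so there were no replicates and no knockout library to set against them. Reads of the input were not used here, and how deeply the ChIP library was sequenced is not stated. The domains were chosen by their measured width, and the enrichment of a peak comes from the same library, so both are given as descriptions with no test.

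H3K36me3 is the trimethyl mark on lysine 36 of histone H3. SETD2 places it while it travels with elongating RNA polymerase II, so the mark lies over the bodies of transcribed genes and is usually weak at their starts. It is known for restraining transcription from starts inside genes and for binding proteins of splicing, DNA methylation and DNA repair.

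The domains lay over basal KC markers and over few markers of fibroblasts, endothelial cells and melanocytes, and the share of immune markers touched was close to that of all genes. Of 18 basal KC markers, 15 (83.3%) carried a domain, against 20.3% of all protein-coding genes. With at least 50% of the gene required in 1 domain, the shares were 22.2% of basal markers and 9.25% of all protein-coding genes. They included Trp63, the master transcription factor of the epidermis, the hemidesmosome genes Itga6, Itgb4 and Col17a1, and the desmosome gene Dsp. Krt5, Krt14 and Krt10 had no domain, but their gene bodies are only 5829, 4387 and 4111 bp long, and narrower peaks covered 96.0% of Krt5, 89.9% of Krt14 and 98.4% of Krt10. Other short keratin genes without a domain were covered less, with 75.5% of Krt15, 40.7% of Krt1 and 0% of Krt2 in narrower peaks. No base of Col1a1, Col1a2, Col3a1, Dcn or Pdgfra, which mark fibroblasts, lay in any peak. Of the 20 fibroblast markers, only Postn carried a domain, and none of the 15 endothelial markers did. Of 22 immune markers 5 were touched (22.7%), and of 14 melanocyte markers 1. Cd52, a leukocyte antigen, lay 89.5% in a domain of 11304 bp. The domains that touched Cd68, Cd74, Csf1r and the melanocyte gene Pmel had another gene as their main gene, namely Senp3, Tcof1, Hmgxb3 and Dgka. Ptprc and Cd3e, which mark leukocytes and T cells, had no base in a peak, nor did the melanocyte genes Tyr and Dct. Mitf, also on the melanocyte list, had no domain and 7.62% of its body in narrower peaks.

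Of the 4585 domains, 636 lay on exactly 2 protein-coding genes transcribed towards each other, and 578 of these held both gene ends. The ends of 3 such pairs are shown because they lie inside single domains. They are the 3 widest domains on exactly 2 protein-coding genes transcribed towards each other. Each line gives the last 30 bases of the principal transcript on its own strand, 5′ to 3′, from RefSeq GRCm38.p6, and capitals mark the polyadenylation signal AATAAA, which directs cleavage of the transcript.
Hectd4 (chr5:121368548-121368577, plus strand): ataaccttcatctgactgactgacctaaga
Trafd1 (chr5:121371725-121371754, minus strand): aatagaAATAAAgtttgtatttagagctca
Dgkd (chr1:87944461-87944490, plus strand): tAATAAAacaggcctgtttttgatcttcca
Usp40 (chr1:87945121-87945150, minus strand): aAATAAAacattcttaaagttgcagtcctc
Cyfip1 (chr7:55932573-55932602, plus strand): tcacaaatgtacattttaatgttcatcacc
Nipa2 (chr7:55931287-55931316, minus strand): tctgtgtaaAATAAAgctcaaagcttttgg
The signal was found in 4 of these 6 windows. AATAAA, searched on the strand of the transcript only, was in the last 30 bases of 1619 of 3006 principal transcripts that ended inside a domain (53.9%), and of 11062 of 21853 principal transcripts of all protein-coding genes (50.6%).

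The domains also held 153 of 1005 annotated miRNA hairpins (15.2%), against 160 under narrower peaks (15.9%), and 152 of the 153 were matched to a mature sequence in RefSeq. A miRNA pairs with its targets mainly through its seed, bases 2 to 8, which is in capitals in the lines that follow. The let-7 seed was the one found most often, in 5 hairpins under 3 domains, of the 13 hairpins in the table that give it. The let-7 family is known for promoting differentiation and limiting proliferation.
let-7b-5p: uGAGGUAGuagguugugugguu
let-7c-5p: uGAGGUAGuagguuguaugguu
let-7f-5p: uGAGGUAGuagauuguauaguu
miR-98-5p: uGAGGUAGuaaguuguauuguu
let-7g-5p: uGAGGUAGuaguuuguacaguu
Mirlet7b and Mirlet7c-2 lay under 1 domain of 35514 bp, Mirlet7f-2 and Mir98 under a domain of 28377 bp on Huwe1, and Mirlet7g under a domain of 16377 bp on Wdr82. A second group came from a pair of related clusters on different chromosomes.
miR-27a-3p: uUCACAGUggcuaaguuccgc
miR-27b-3p: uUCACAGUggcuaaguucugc
miR-24-3p: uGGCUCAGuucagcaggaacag
The Mir23a, Mir27a and Mir24-2 cluster lay under a domain of 32456 bp whose main gene was Zswim4, and the Mir23b, Mir27b and Mir24-1 cluster under a domain of 23207 bp within the long gene model 2010111I01Rik. Mir24-1 and Mir24-2 give the same mature miR-24-3p.

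The domains made up 10.1% of peaks and 49.0% of all bases in peaks, 88433071 of 180594985. Their median width was 16002 bp, and the central 50% of them lay between 12336 and 22619 bp. A width above 20000 bp was reached by 1482 domains (32.3%), above 30000 bp by 541, above 50000 bp by 101 and above 75000 bp by 15. Peak widths ran through the limit without a break, as the plot of widths shows. The 3 narrowest domains were assigned to Pde6a (10002 bp), Nuak1 (10003 bp) and Myo18a (10006 bp), and the widest peaks left out to Cdan1 (9999 bp), Dhx34 (9998 bp) and Furin (9993 bp).

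**Figure D1:**
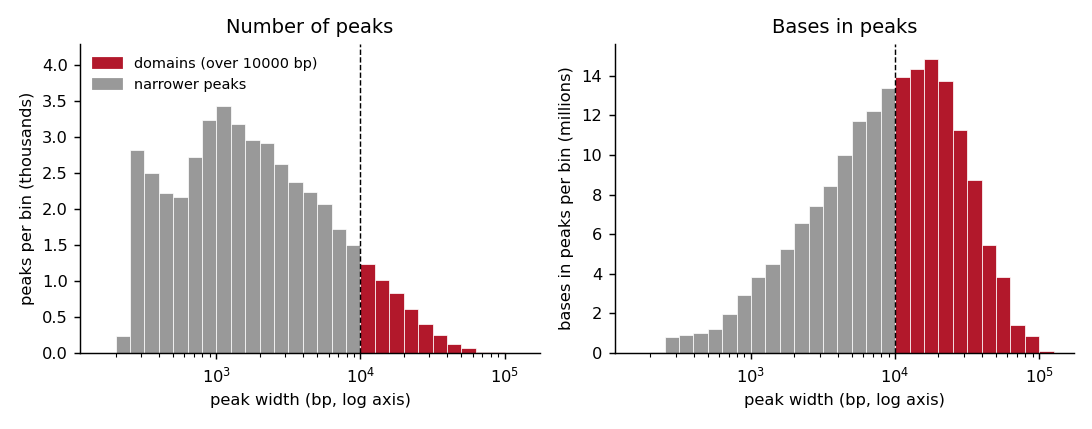
Number of peaks (left) and bases in peaks (right) by peak width on a log axis, in equal bins of log10 width; red bars are the domains, grey bars the narrower peaks and the dashed line 10000 bp. The domains are 4585 of 45575 peaks but hold 49.0% of the bases, and widths fall off smoothly across the limit.

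Fold enrichment, the ratio of ChIP signal to background given by the peak caller, had a median of 3.38 in the domains (range 2.68 to 6.36) and of 2.86 in the narrower peaks (range 2.17 to 6.97). A P below 1e-05 was given to 2385 domains (52.0%) and to 3460 narrower peaks (8.44%). The highest enrichment among the domains was 6.36 at Plec, which encodes plectin, the linker of keratin filaments to hemidesmosomes, in a domain of 25439 bp at chr15:76169244-76194682. It was followed by 5.21 at Zfp110, 5.19 at Lmna, which encodes the nuclear lamins A and C, 5.15 at Zfp68 and 5.06 at Jup, which encodes the desmosomal linker plakoglobin. The lowest values were 2.68 at Habp4, 2.79 at 0610010F05Rik, 2.80 at Pdzrn3, 2.81 at Rcn2 and 2.83 at Ckap2l. Width and enrichment therefore did not single out the same domains: the 25 widest had enrichments of 3.21 to 3.90, with a median of 3.48. Genes named Zfp, most of which encode zinc finger proteins of the DNA-binding type, were the main gene of 83 domains with a median enrichment of 3.53, against 3.38 for the domains on other genes, and of 5 of the 20 domains with the highest enrichment. Domains touched 86 of 394 Zfp genes (21.8%), close to the 20.3% of all protein-coding genes. This group was chosen after its values were seen.

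The widest domain covered 104767 bp at chr5:121277558-121382324, over the last 61.4% of Hectd4, a HECT-type ubiquitin ligase gene, and across the end of Trafd1, a regulator of innate immune signalling. Next came 98400 bp on Chd2, which encodes a chromatin remodeller (chr7:73427160-73525559), 92276 bp on Ubr4, a ubiquitin ligase of the N-degron pathway (chr4:139388940-139481215), and 88359 bp on Usp34, a deubiquitinase (chr11:23391768-23480126). Trrap, a scaffold of histone acetyltransferase complexes, carried 85947 bp, and Myo1e, a class I myosin, 85884 bp. The file assigned the Myo1e domain to Mir5626, a miRNA inside the gene.

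The genes under the 25 widest domains have varied functions. Besides Chd2 and Trrap, chromatin proteins were encoded by Chd9 (80287 bp), Kdm5a (76554 bp), a demethylase of H3K4, and Nsd3 (70278 bp), which adds methyl groups to H3K36 itself. Ubiquitin enzymes were encoded by Hectd4, Ubr4, Usp34, Shprh (66184 bp) and Usp40 (68792 bp). The cytoskeleton was represented by Macf1, which joins actin to microtubules (85220 bp), the kinesin Kif13b (72070 bp), the microtubule polymerase Ckap5 (69110 bp), the centrosomal Cep350 (77365 bp) and Cyfip1, a subunit of the WAVE actin regulator (65942 bp). Others were Bdp1, a subunit of the RNA polymerase III factor TFIIIB (81426 bp), Anapc1 of the anaphase-promoting complex (74854 bp), Nup214 of the nuclear pore (72602 bp), the spliceosomal helicase Aqr (67631 bp), the lipid transfer protein Vps13d (78545 bp), the folding sensor Uggt1 of the endoplasmic reticulum (75517 bp) and Zzef1 (82612 bp).

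Of these 25 domains, 22 lay on 1 protein-coding gene and 3 on 2 genes. They covered at least 50% of their main gene in 19 cases, reached its end in 13 and covered its start in 0. The upstream edge lay as near as 1777 bp after the start, at Kdm5a, and as far as 169789 bp after it, at Macf1. The Macf1 gene was 334728 bp long and the downstream edge of the domain lay at -79719 bp from its end, so even a domain of this width took up only 25.5% of the gene. Shprh, by contrast, was covered over 96.9% of its 68169 bp, from 2112 bp after its start to 127 bp past its end.

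**Figure D2:**
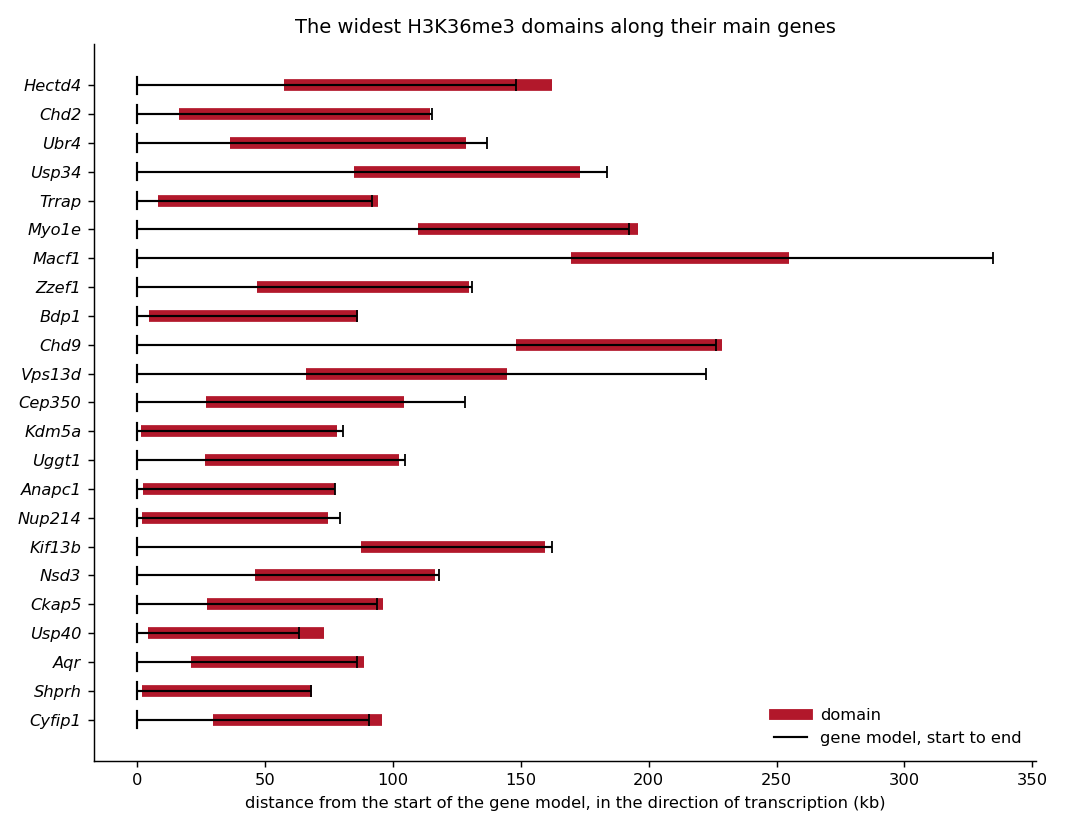
Domains (red) from the 25 widest, 23 of them, drawn to scale on their main gene models (black line, from start to end), with the distance from the gene start in kb along the direction of transcription. None of the 23 covers the gene start, 11 reach or pass the gene end, and the share of the gene covered runs between 25.5% at Macf1 and 96.9% at Shprh.

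The share covered by 1 domain, over protein-coding genes of 20000 bp or more, was largest for Trim29 (98.7%) and Dsp (98.6%). Trim29 is expressed in stratified epithelia and Dsp encodes desmoplakin, which ties keratin filaments to desmosomes. The Dsp domain was 47409 bp wide with an enrichment of 4.71 (chr13:38151936-38199344), began 642 bp after the gene start and ended 767 bp past the gene end. Atp2a2, the calcium pump of the endoplasmic reticulum whose human gene is mutated in the skin disorder Darier disease, was covered over 97.6%. The others were Itprid2 (97.4%), Itm2b (97.3%), the splicing gene Rbm39 (97.2%), Ccar1 (97.0%), Fam83g (97.2%), Shprh (96.9%) and Nemf (96.9%), which acts in ribosome quality control. The domain on Fam83g lay inside the longer gene Slc5a10 on the other strand.

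Domains touched 4453 of 21938 protein-coding genes, and 2030 of these had at least 50% of their body in 1 domain. At least 90% lay in 1 domain for 306 genes and the whole body for 36. Over the 4453 genes, domains covered a median of 51.6% of the body, and domains and narrower peaks together 67.2%. A gene could hold several domains: 752 genes held 2 or more and 11 held 5 or more. Syne2, a giant protein of the nuclear envelope, held 6 that together covered 66.6% of its 292793 bp, Herc1 held 5 over 69.1% of 158326 bp, and Mycbp2 held 6 over 49.3% of 233404 bp. Gm20388 (19 domains) and Fgfr2 (14 domains) are gene models of 4434882 and 2960900 bp that run across many other genes, so their counts do not describe single genes. Breaks between neighbouring peaks were short. No gap between peaks was under 989 bp, and 3421 domains (74.6%) had another peak within 3000 bp. The gap to the nearest peak had a median of 1481 bp for domains and 1803 bp for narrower peaks. Short gaps were therefore not particular to the domains.

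Domains started inside genes and often ran past their ends. Of the 4576 domains with a protein-coding main gene, the gene with the most bases in the domain, 7 (0.153%) covered the start of its gene model and 2148 (46.9%) reached its end. The 1769 domains that covered at least 50% of the main gene show the layout most clearly. Their upstream edge lay a median of 4236 bp after the gene start, with the central 50% between 2211 and 8709 bp, and their downstream edge a median of 991 bp past the gene end. Of these domains 4 (0.226%) covered the gene start and 1265 (71.5%) reached the gene end. The upstream edge was seldom close to the start, and lay within 1000 bp after it for 37 domains (2.09%) and within 2000 bp for 343 (19.4%). On the principal transcript, the upstream edge fell in intron 1 in 32.7% of these domains, in intron 2 in 32.6%, in a later intron in 21.0%, in an exon after the first in 12.4% and in exon 1 in 0.565%. Where a domain of any cover reached the gene end, it ran on for a median of 1805 bp.

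Averaged over the 4352 genes of at least 5000 bp that had a domain, the share of bases in domains was 2.48% in the first of 20 bins of the gene body, 56.3% in bin 10 and 74.7% in bin 18, and it was still 70.0% in the last bin. It fell to 61.9%, 54.6% and 47.1% in the 3 bins of the first 1500 bp past the end, and was at most 1.80% in the 1500 bp before the start. In the same genes, 5.70% of bases in the first bin lay in any peak, 67.8% in bin 10 and 84.1% in bin 18. In the 5947 genes with peaks but no domain, cover by any peak was 2.28% in the first bin, 35.9% in bin 10 and 48.9% in bin 18. In the flank bin farthest before the start it was 3.77% in genes with a domain and 3.98% in genes without. Width limits where a domain can lie, since a domain needs more than 10000 bp of marked chromatin.

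**Figure D3:**
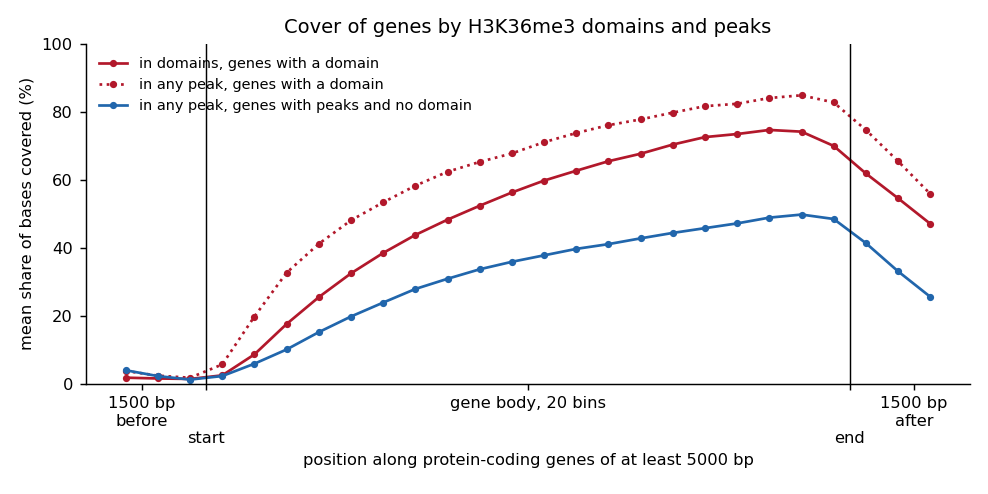
Mean share of bases covered along protein-coding genes of at least 5000 bp, in 20 bins of the gene body and 3 bins in each 1500 bp flank: bases in domains (solid red) and in any peak (dotted red) for the 4352 genes with a domain, and in any peak (blue) for the 5947 genes with peaks and no domain. Cover by domains is 2.48% in the first bin of the body and highest, at 74.7%, in bin 18.

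The annotation class of the domains gave another picture than their position. The file put 3676 domains (80.2%) in the promoter class, against 35.7% of narrower peaks, and 484 in the 3′ UTR class (10.6%), 354 in the exon class (7.72%), 65 in the 5′ UTR class, 5 in the intron class, 1 in the downstream class and 0 in the distal intergenic class. Only 28 domains (0.612% of those with a main gene) covered the start of the principal transcript of their main gene. The class counts the start of any annotated transcript, and 3200 domains (69.8%) held at least 1 such start, against 4654 narrower peaks (11.4%). In 2879 domains at least 1 of these starts belonged to a transcript of the main gene itself, so it was an internal start in nearly all of them. All 3200 belonged to the promoter class and made up 87.1% of its 3676 domains. The rest of that class held no annotated start, so the class did not require one inside the domain. A wider peak has more room for a start, and the part of width in the difference from narrower peaks was not tested. Starts of gene models that are not protein-coding, such as antisense RNAs and miRNAs, lay in 849 domains (18.5%), and starts of protein-coding gene models in 93 (2.03%). The assigned gene was the main gene for 3654 of 4576 domains (79.9%), and 511 domains (11.1%) were assigned to a gene that is not protein-coding.

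Multi-gene spans were mostly pairs of genes that meet at their ends. Of all domains 3736 (81.5%) lay on 1 protein-coding gene, 801 (17.5%) on 2, 34 on 3, 5 on 4 and 9 on none. The share on 2 or more genes was 18.3%, against 5.11% of narrower peaks. The domains on 2 or more genes had a median width of 18458 bp, and those on 1 gene of 15590 bp. Of the 801 domains on 2 genes, 636 (79.4%, exact binomial 95% interval 76.4 to 82.2%, which covers counting error only) lay on genes arranged tail to tail, that is, transcribed towards each other. A further 81 (10.1%) lay on genes of the same strand, 77 (9.61%) on a gene nested in another and 7 (0.874%) on genes that start back to back, here called head to head. Neighbouring protein-coding genes up to 5000 bp apart were tail to tail in 31.9% of 7339 pairs and head to head in 21.7%. Among the 1101 such pairs in which both genes carried a domain, 59.8% were tail to tail and 15.0% head to head. A pair spanned by 1 domain also counts among these 1101, so they are not a separate reference for the 2-gene domains. Of the 636 tail-to-tail domains, 578 (90.9%) held both gene ends and 635 held no gene start. Of the 81 same-strand domains, 46 held the start of a gene, so there the mark ran on past a second start.

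**Figure D4:**
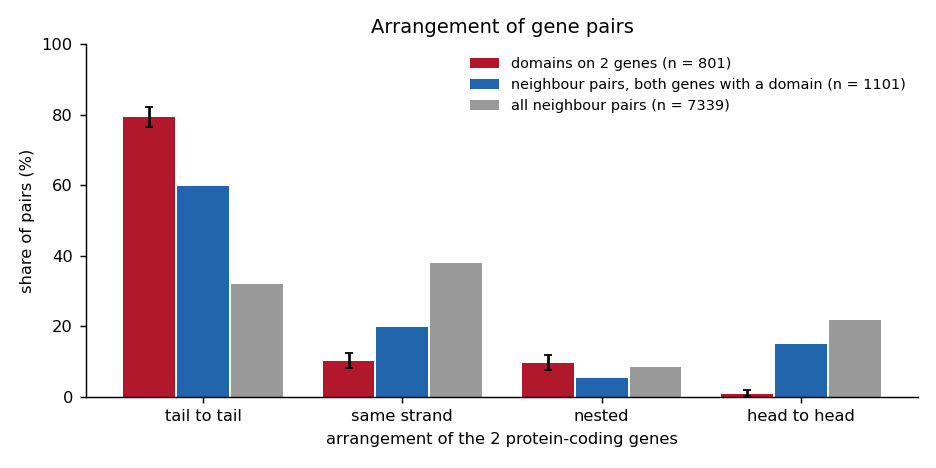
Arrangement of pairs of protein-coding genes as a share of pairs: the 801 domains that lie on exactly 2 genes (red, with exact binomial 95% intervals), the 1101 neighbour pairs up to 5000 bp apart in which both genes carry a domain (blue) and all 7339 such neighbour pairs (grey). Tail-to-tail pairs make up 79.4% of the 2-gene domains, 59.8% of pairs with a domain on both genes and 31.9% of all neighbour pairs, and head-to-head pairs 0.874%, 15.0% and 21.7%. A pair spanned by 1 domain counts among the blue pairs too, so the red and blue sets are not separate.

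The domains that held whole genes showed what lies inside such spans. At chr11:69664203-69680239 a domain of 16037 bp began 1845 bp after the start of Senp3, which encodes a SUMO protease, and ran on over the whole of Eif4a1, the RNA helicase of translation initiation, and the whole of Cd68. All 3 genes lie on the minus strand in that order. Cd68 is a macrophage marker, and it is 1 of the 5 immune markers touched by a domain. At chr18:36632137-36668592 a domain of 36456 bp covered the last part of Ankhd1 and the whole of Eif4ebp3, a repressor of cap-dependent translation, as well as a readthrough model that joins them, and took in 46.2% of Sra1 on the other strand. At chr7:30564565-30586852 a domain of 22288 bp covered 90.6% of Kmt2b, which encodes a methyltransferase of H3K4, and the whole of Igflr1, which meets Kmt2b tail to tail. At chr6:113698717-113738470 a domain of 39754 bp covered 88.1% of Tatdn2, 82.1% of Sec13, a coat protein of secretory vesicles, and the whole of Ghrl, the gene of the gut hormone ghrelin, between them. The other domains of this kind held Npff with parts of Atf7 and Tarbp2, 1700109H08Rik between Fam133b and Rbm48, Gm21958 within Supt20, and Ankrd61 within Eif2ak1, next to part of Aimp2.

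The share of genes with a domain varied with gene length. Of genes up to 10000 bp 3.68% had a domain, and the share was 21.2% at 10000 to 20000 bp, 34.7% at 20000 to 50000 bp, 37.3% at 50000 to 100000 bp, 30.0% at 100000 to 200000 bp and 14.3% above that. Genes with a domain had a median length of 34761 bp, and all protein-coding genes of 17425 bp. The lists of genes that follow were therefore counted also over genes of at least 20000 bp, of which 3318 of 10159 (32.7%) had a domain. The part of gene length in the remaining differences was not tested.

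Genes of the epidermal junctions were covered densely. Of 22 desmosome and hemidesmosome genes 19 (86.4%) had a domain, and domains covered a median of 69.6% of the gene over all 22. Besides Dsp, they included Ppl, which encodes periplakin (widest domain 59201 bp, shared with its neighbour Ubn1), Itga6 (39635 bp) and Dsc3 (37002 bp). The longest without a domain was Pkp2, a plakophilin known mainly from heart and simple epithelia, with 0% of its 59395 bp in any peak. The other 2 without one were Dsc2, with 6.76% in peaks, and the short Cd151, with 52.6%. Of 32 adherens junction and actin genes 25 (78.1%) had a domain, led by Macf1, with Iqgap1 (58653 bp) and Sptan1 (54172 bp). Among genes of at least 20000 bp, 16 of 18 desmosome and hemidesmosome genes had a domain. In the adherens junction and actin list it was 24 of 27, against 32.7% of all protein-coding genes of that length. Cdh1, which encodes E-cadherin, had 2 domains over 52.1% of its body. Among the genes of this list without a domain were Dlg1 (31.3% in narrower peaks) and Myh10 (4.95%), and the X-linked Flna (57.3%).

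Basal and differentiated KC genes differed in length as well as in cover. The domains on basal markers were widest at Dsp (47409 bp), Lama3, a chain of the laminin under basal KCs (44258 bp), Trp63 (40756 bp) and Itga6. All 14 basal markers of at least 20000 bp had a domain. Of 30 differentiated KC markers 8 (26.7%) had one, a share close to the 20.3% of all genes, and of the 11 that are at least 20000 bp long 7 did (63.6%). The 8 were Ppl, Notch1 (28664 bp), Dsg1a (24872 bp), Notch3, Grhl3, Evpl, Spink5 and Dsc1. The longest without one were Tgm3, an enzyme of cornified envelope crosslinking, with 15.1% of 38051 bp in peaks, Flg2 with 0% of 24114 bp, and Aloxe3 with 4.95% of 23220 bp. Flg, which encodes filaggrin, also had 0% of its 20164 bp in peaks. In shorter differentiated markers without a domain, cover by narrower peaks ran between 0%, as at Ivl and Lor, and 98.4% at Krt10. It was 82.8% at Klk7, 77.9% at Sprr1a and 74.7% at Ovol1. Of 20 hair follicle markers 3 had a domain, namely Ptch1, the Hedgehog receptor (37529 bp), Lrig1, a stem cell marker of the upper follicle (29726 bp), and Nfatc1 (12563 bp). The longest without one, Gli2, Lgr5 and Lgr6, had 2.77%, 1.12% and 20.2% of their bodies in peaks. In shorter follicle markers without a domain, cover by narrower peaks ran between 0%, as at Krt75 and Shh, and 89.2% at Krt17. It was 82.9% at Krt79, 81.6% at Krt6a and 77.0% at Sox9.

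Genes of general cell functions had high shares, also among genes of at least 20000 bp. Of those, 38 of 40 traffic, 35 of 36 ubiquitin and 62 of 70 chromatin genes had a domain, against 32.7% of all such genes. For splicing and RNA-binding genes it was 30 of 34, and for elongation genes 20 of 22. A domain lay on 39 of 41 membrane traffic genes (95.1%), with the widest at Vps13d, Golga4 (62629 bp), Dync1h1, the heavy chain of cytoplasmic dynein (57451 bp), and Golgb1 (47507 bp), and on 36 of 38 ubiquitin ligase and deubiquitinase genes (94.7%). The 2 ubiquitin genes without one were Cul4b, which is X-linked, and the short Bap1, and the 2 traffic genes Myo5b and Vps41. Of 77 chromatin regulator genes 66 (85.7%) had a domain, and 11 of them had one wider than 50000 bp, a width found on 131 protein-coding genes in all. The median length of the chromatin list was 77942 bp, against 17425 bp for all protein-coding genes. Chromatin regulators without a domain included Atrx and Bcor on the X chromosome and Kdm2b, whose 119159 bp were 39.8% in narrower peaks. Of 56 splicing and RNA-binding genes 43 (76.8%) had a domain, among them Mbnl2 (44409 bp) and the spliceosome genes Sf3b3 (36987 bp), Sf3b1 (36200 bp) and Snrnp200 (35742 bp). Of 29 transcription elongation genes 22 (75.9%) had one, with the widest at Aff4, the scaffold of the super elongation complex (54998 bp), Cdk12 (46264 bp), a kinase of the polymerase tail, Polr2b, the second largest polymerase subunit (38511 bp), and Supt6 (30740 bp), a histone chaperone that travels with the polymerase.

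The genes of H3K36 methylation were themselves among the marked genes. Of 28 such enzymes and readers 20 (71.4%) had a domain. Of the 23 that are at least 20000 bp long 18 did (78.3%), against 32.7% of all protein-coding genes of that length. Setd2 carried 3 domains, of 24559, 13428 and 11516 bp, with enrichments of 3.36, 3.92 and 3.45, which together covered 57.5% of its 86037 bp. The first of them along the gene began 13465 bp after the gene start. The dimethyltransferase Nsd1 carried 4 domains over 64.0% of its length and Ash1l 3 over 42.0%. Among demethylases, Kdm4c (widest domain 43930 bp), Kdm4a (37506 bp), Kdm2a (34866 bp) and Kdm4b (19646 bp) carried domains and Kdm2b and Kdm8 did not. Among readers, the widest were on Brd1 (45694 bp) and Glyr1 (33197 bp), and the DNA methyltransferase gene Dnmt3a carried 1 domain of 10867 bp and Dnmt3b none.

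In the PI3K/AKT/mTOR pathway, which carries growth factor and matrix signals to protein synthesis, 33 of 58 genes (56.9%) had a domain. Of the 46 that are at least 20000 bp long 32 did (69.6%), against 32.7% of all protein-coding genes of that length. Among the lipid kinases, Pik3cb had a domain of 60961 bp and Pik3ca one of 27722 bp. The widest domain was 50560 bp on Mtor, 37312 bp on the receptor gene Egfr and 34384 bp on Rps6kb1, an S6 kinase gene. The mTORC2 subunit gene Rictor carried 2 domains, with the wider at 40101 bp. Akt1 (10127 bp) and Akt2 (21721 bp) carried domains. Igf1r and Mapkap1 were among the longest without a domain, and narrower peaks covered 17.1% of Igf1r and 25.9% of Mapkap1. The Fgfr2 entry of this list rests on the overlong model described above. The domain on Pik3cd touched 1.91% of that gene only.

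Short, highly expressed genes fell outside the domains. Of 44 ribosomal protein and translation factor genes 15 (34.1%) had a domain, and the median length of the list was 4796 bp. Of the 6 that reach 20000 bp, 5 had one, led by Eif5b (41514 bp) and Eif4g3 (29252 bp). Rps2, Rpl4 and Eef2 had no domain, with 100%, 87.3% and 87.3% of their bodies in narrower peaks. None of the 34 genes specific to other organs had a domain, and 19 of them were at least 20000 bp long, such as the neuronal genes Cntnap2 and Rbfox1. In all, 13 of the 18 lists had a larger share of genes with a domain than all protein-coding genes. With at least 50% of the gene required in 1 domain, the share was 18.8% of adherens junction and actin genes, 28.9% of ubiquitin genes, 15.5% of PI3K/AKT/mTOR genes, 40.3% of chromatin genes, 46.3% of traffic genes, 50% of desmosome and hemidesmosome genes, 51.7% of elongation genes, 32.1% of H3K36 genes and 55.4% of splicing genes, and 12 of the 18 lists exceeded the 9.25% of all genes. The lists were not drawn at random, so these shares describe the lists named and nothing wider.

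**Figure D5:**
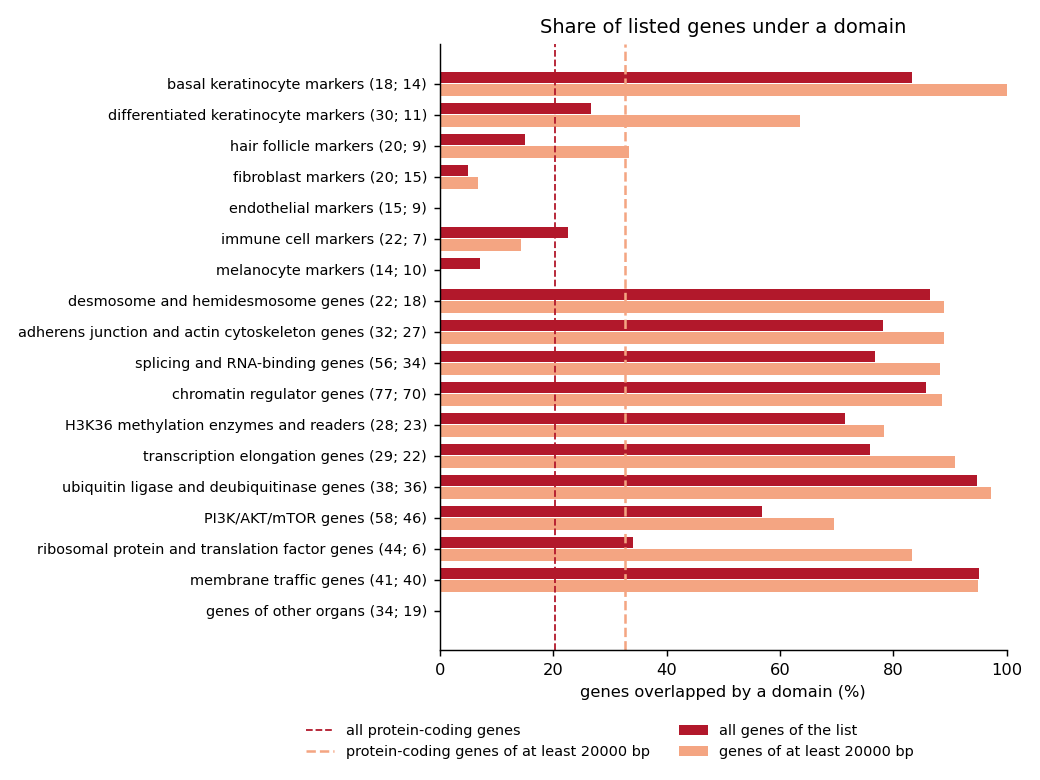
Share of the genes of each list that a domain overlapped, for all genes of the list (red bars) and for genes of at least 20000 bp (orange bars), with the number of genes of both kinds in brackets and dashed lines at the shares of all protein-coding genes, 20.3% and 32.7%. Basal KC, junction, chromatin, ubiquitin and traffic genes lie at 78.1 to 95.1% over all genes, and endothelial genes and genes of other organs at 0%.

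Domains were found on every autosome and the X chromosome. The X chromosome held 15 domains among its 1029 peaks (1.46%), on 12 of 948 protein-coding genes (1.27%). On the autosomes, the share of protein-coding genes with a domain ran between 14.9% on chromosome 7 and 30.0% on chromosome 12. Enrichment was also lower on the X, with 2.90 to 3.22 in its 15 domains (median 3.04) against a median of 3.38 in the 4570 autosomal domains, and with a median of 2.78 over all X peaks against 2.89 to 2.95 on the autosomes. Only autosomal domains had a P below 1e-05. The sex of the animals is not stated, so the number of X copies is not known, and its part in these values was not tested. The domains on the X lay on Huwe1 (3 domains, up to 28377 bp), a ubiquitin ligase, Kdm5c and Taf1 (2 each), Eif2s3x (20650 bp), Ogt, Hcfc1, Usp9x, Dkc1 with Mpp1, Lamp2, 1810030O07Rik and Mtmr1. The Y chromosome had 24 peaks and 0 domains.

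Of the 9 domains on no protein-coding gene, 8 lay on a gene model of another type, and 1, assigned to Arl4aos (10883 bp), on none. The widest covered 35514 bp at chr15:85672370-85707883 with an enrichment of 3.58, over 65.2% of Lncppara, the host transcript of Mirlet7c-2 and Mirlet7b, whose sequences are given above. It ended 359 bp past the end of the host. The next covered 51.5% of the long non-coding RNA gene Crnde (15482 bp wide), and others lay on Atp10d (13873 bp), annotated as a polymorphic pseudogene, on Trerf1 (12356 bp), whose model is a processed transcript, and on D930016D06Rik (12004 bp). Of non-coding genes of all kinds, domains touched 282 of 2959 antisense genes, 128 of 1507 snoRNA genes, many of which lie in introns, and 77 of 5854 lincRNA genes.

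The base composition of the domains was close to that of narrower peaks. GC content was 44.0% in the domains, 44.5% in narrower peaks and 41.7% over the chromosomes, and CpG dinucleotides numbered 1.08, 1.11 and 0.826 per 100 bp. Single domains ranged between 32.7% and 59.7% GC. Exons of principal transcripts made up 13.5% of domain bases, the rest of protein-coding genes 82.6% and bases outside them 3.89%. In narrower peaks these shares were 13.1%, 80.2% and 6.63%.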

How the data were processed

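The deposited list of annotated H3K36me3 peaks from 1 ChIP library of KCs was used. The authors trimmed the reads and mapped them with Bowtie2 2.2.6 to the mouse build GRCm38. Peaks were then called by MACS2 2.1.1 with a limit of 0.01 on P, and ChIPseeker gave each a class and a gene. Whether the input served as control is not stated. In the deposited table the fold enrichment is a ratio of ChIP signal to background, each deposited P-value and q-value is given as its −log10, and width and distance to a start are in bp. A narrow or broad setting of the caller, gaps and depth all bear on width.

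Domains were overlapped with GENCODE vM21 gene models by at least 1 bp, and the principal transcript was the APPRIS principal one. Edges were measured along transcription. Sequences were read from RefSeq GRCm38.p6. Scripts ran in Python 3.11.15, with SciPy 1.17.1 for intervals, pandas 2.3.3 and NumPy 2.4.6 for tables and matplotlib 3.10.9 for plots, and the interval functions were tested on simulated data, where 9 of 9 tests passed. The members, the gene lists and the rule for named genes were chosen with earlier results of these data known. Named genes are those under the 25 widest domains, the 8 domains with most whole genes, the 10 genes of at least 20000 bp most fully covered, the 5 domains of highest and of lowest enrichment, the 5 widest on no protein-coding gene, and per list up to 4 with the widest domain and 3 of the longest with none, and a few are left out; further marker genes, genes of the H3K36 and PI3K lists, the X-linked genes, genes with 5 or more domains and the miRNAs were named after their values were seen. Some items that this rule names are not reported here. No test was made, since there is 1 library. The alternatives were widths over 5000 and 20000 bp, a P below 1e-05, merging across gaps of 1000 or 3000 bp, and other ways of counting genes.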

Additional observations from a re-analysis of the deposited data

How the results depend on the processing

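The number of domains follows the limit on width: 9913 peaks were wider than 5000 bp, 1482 wider than 20000 bp, and 2385 domains had a P below 1e-05, against 4585. Protein-coding genes with a domain numbered 7370, 1754 and 2731 under these settings, against 4453. They numbered 2030 when at least 50% of the gene had to lie in 1 domain and 6908 when peaks were merged across gaps of up to 3000 bp, an alternative chosen after seeing the data. The share of domains on 2 or more genes was 14.2% over 5000 bp, 24.4% over 20000 bp, 23.1% with a P below 1e-05 and 22.3% after that merging, against 18.3%. The median distance of the upstream edge from the gene start, for domains over at least 50% of the gene, was 3191, 5924, 3953 and 3666 bp in the same order, against 4236 bp. The share of these domains that reached the gene end was 75.2% with a P below 1e-05, 75.7% after merging across 3000 bp and 74.7% with the span of the principal transcript, also chosen after seeing the data, against 71.5%. The share of X-linked genes with a domain was 5.59% over 5000 bp, 0.211% over 20000 bp, 0% with a P below 1e-05 and 7.38% after merging across 3000 bp, against 1.27%. The median enrichment was 3.44 over 20000 bp and 3.54 with a P below 1e-05, against 3.38. Between 11 and 14 of 18 gene lists exceeded the share of all genes under the settings run, against 13. Merging across gaps of up to 1000 bp gave 4617 domains. No gap between peaks was under 989 bp, so that setting could change little. Merging across gaps of up to 3000 bp gave 6503. No paired analysis was possible because there is 1 ChIP library. Without replicates or a known depth no error of a width or an edge can be given, and a gap in a gene can be a call missed at this depth.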

Other observations

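Domains were unevenly spread along the chromosomes. Of 2732 bins of 1 Mb, 1376 held the midpoint of a domain. The bin with most domain bases, 261008, lay on chromosome 5 at 121 to 122 Mb and held 7 domains, among them that on Hectd4 and one on Ptpn11, which encodes the phosphatase SHP2. The next, on chromosome 3 at 95 to 96 Mb, held 14 domains over 256409 bp, on Arnt, a partner of the aryl hydrocarbon receptor, Setdb1, a methyltransferase of H3K9, Prpf3, a splicing factor, and others.

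Scel, which encodes sciellin, a precursor of the cornified envelope, carried 3 domains of 61275, 20364 and 17873 bp. The first of them along the gene began 629 bp after the gene start and the last ended 3499 bp past the gene end. The file assigned the widest of them to the neighbouring gene Slain1. Krt80 and Krt77 were keratin genes with a domain, of 21267 and 10872 bp, over 93.6% and 99.1% of the gene. These genes were chosen after their values were seen.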
